A study of Homo sapiens with 12 samples.

Results

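The ATP-binding cassette (ABC) drug efflux pumps were examined in gemcitabine (GEM)-resistant pancreatic cancer cells and the parental cells from which they were selected. The 8 pumps were chosen by gene name as the ABC transporters best known for carrying drugs out of cells: ABCB1, ABCC1, ABCC2, ABCC3, ABCC4, ABCC5, ABCC10 and ABCG2. All 8 were among the 58302 genes of the expression table. The question was which pump transcripts differed between each resistant line and its parental line, and whether both resistant lines differed in the same way.

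RNA sequencing covered 4 groups of 3 libraries, 12 in all. BxPC-3 and CFPAC-1 are human epithelial lines from pancreatic adenocarcinoma that were sensitive to GEM. The resistant lines BxPC-3-GR and, from the other parent, CFPAC-1-GR were selected by long exposure to rising GEM concentrations. The study's methods give other dose steps for each line and a higher final GEM concentration for BxPC-3-GR. Dose and line therefore cannot be told apart where the responses of the lines are compared. RNA was taken near confluence from cells in serum-supplemented medium. The labels name 1 base medium for all lines, whereas the study's methods name different ones for BxPC-3 and CFPAC-1, so base medium and line may be impossible to tell apart where these lines are compared. There was 1 resistant line per parental line, so GEM selection and any other change during the derivation of that line cannot be told apart. The labels do not say whether the 3 libraries of a line came from separate cultures, so p-values measure the spread between these libraries, which may be technical.

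GEM is a deoxycytidine analog that enters cells through nucleoside transporters and acts after phosphorylation. ABC pumps use the energy of ATP to move substrates outward across a membrane. ABCB1 (P-glycoprotein) carries bulky hydrophobic drugs such as taxanes and anthracyclines. The ABCC pumps, or multidrug resistance proteins, mostly carry organic anions. These include glutathione and glucuronide conjugates (ABCC1, ABCC2 and ABCC3) and cyclic nucleotides and phosphorylated nucleoside analogs (ABCC4 and ABCC5). ABCC10 carries taxanes, and ABCG2 (breast cancer resistance protein) is a smaller transporter that works as a dimer and carries irinotecan metabolites, among other drugs.

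Levels are given in FPKM, the fragments of a gene divided by its length and by the library's mapped total, and are therefore comparable between genes of different length. Depth, inferred from the spacing of the low values, was 12700000 to 25300000 fragments per library. A log2 fold change (log2FC) was taken on log2(FPKM + 1) and tested with limma over all genes averaging 1 FPKM or more in the 6 libraries of a comparison. This scale understates the change of low genes. A gene passed the test at a Benjamini-Hochberg adjusted p below 0.05 and was called significantly differentially expressed (SDE) when its absolute log2FC was also above 1. Pumps under that mean were read from a second fit, called the low fit here, with a minimum mean of 0.1 FPKM on log2(FPKM + 0.1). Each minimum is set on the mean of all libraries compared, so a gene can enter a fit through the group where it is high alone. An exact 2-sided permutation test of 3 against 3 libraries cannot go below p = 0.1, so single pumps were not judged by it.

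All 5 epithelial markers examined (EPCAM, CDH1, KRT8, KRT18 and KRT19) averaged 1 FPKM or more in each line. Their summed level was 668 to 730 FPKM in the BxPC-3 libraries and 731 to 761 in their resistant counterparts, against 2457 to 2608 for CFPAC-1 and 1046 to 1194 for CFPAC-1-GR. Of 14 fibroblast, leukocyte and endothelial markers, COL1A1 and CD68 were the ones to reach 1 FPKM in any line. The summed leukocyte markers were 29.3 to 37.0 FPKM in CFPAC-1 and 9.88 to 12.02 FPKM in CFPAC-1-GR, and the part of these marker differences in the pump values was not tested. In bulk RNA, fewer cells expressing a pump and less pump RNA per cell cannot be told apart. Across genes in CFPAC-1-GR against CFPAC-1, log2FC fell with the GC content of the transcript (Spearman rho = -0.78 over 12030 genes, across genes that are not independent replicates). The same value was 0.04 over 11685 genes in BxPC-3-GR against BxPC-3. Values corrected for GC content and transcript length, which place a pump relative to genes of like GC content and length, are therefore given beside the CFPAC-1 results.

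ABCG2, ABCC4 and ABCC5 carry the main differences described here. The sequence upstream of 1 annotated start site is shown for each of these pumps. Other pumps differed between resistant and parental cells too, and for ABCC1 and ABCC3 no such sequence was available. The stretches come from RefSeq on GRCh38.p14, run 5′ to 3′ on the gene strand, and leave out bases that an annotated exon covers. Capitals mark the motifs searched on both strands: the GC box GGGCGG, the antioxidant response element core TGACNNNGC and the xenobiotic response element core GCGTG.
ABCG2 upstream, chr4:88159324-88159540, minus strand: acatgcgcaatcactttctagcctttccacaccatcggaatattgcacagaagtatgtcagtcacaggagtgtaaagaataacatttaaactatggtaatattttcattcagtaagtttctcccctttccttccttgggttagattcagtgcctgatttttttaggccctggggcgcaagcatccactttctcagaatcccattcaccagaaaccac
ABCC4 upstream, chr13:95301476-95301701, minus strand: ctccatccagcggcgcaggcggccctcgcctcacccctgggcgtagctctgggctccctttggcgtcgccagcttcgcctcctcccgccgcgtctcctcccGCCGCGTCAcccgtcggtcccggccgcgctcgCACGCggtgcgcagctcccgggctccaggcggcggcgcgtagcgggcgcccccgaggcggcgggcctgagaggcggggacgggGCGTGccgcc
ABCC5 upstream, chr3:184018016-184018134, minus strand: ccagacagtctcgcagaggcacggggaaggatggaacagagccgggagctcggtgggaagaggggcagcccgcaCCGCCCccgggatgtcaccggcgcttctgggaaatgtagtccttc
The ABCG2 stretch had a GC content of 41.9% and held 0 of the motifs. Its start site, at 88159290, lies inside the span of the ABCG2 gene (88090264-88231322, minus strand), so the stretch is not upstream of the whole gene. Which start site these cells use was not tested. The ABCC4 stretch had a GC content of 80.1% and held 1 antioxidant core and 2 xenobiotic cores. The ABCC5 stretch, whose nearest base lies 132 bases upstream of its start site, had a GC content of 66.4% and held 1 GC box. Over the whole windows of 300 bases around the start site, exon bases included, 6 of the 8 pumps had an entry, all but ABCC1 and ABCC3. The GC box was in 3 of these 6 pumps (ABCC5, ABCC10 and ABCG2) and in 45% of 35116 promoters of the same length. The antioxidant core was in ABCC4, ABCC10 and ABCG2, against 13.3% of promoters. The xenobiotic core was in 5 pumps (ABCB1, ABCC4, ABCC5, ABCC10 and ABCG2), against 36.5% of promoters. These matches describe letters in a window and show no binding.

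The parental lines differed first in which pump they transcribed. ABCC3, a pump of the basolateral membrane that exports glucuronide conjugates (ENSG00000108846, chromosome 17, 50634777-50692252, plus strand, GRCh38), stood at 36.8 ± 3.84 FPKM (SD, n = 3) in CFPAC-1 and 2.90 ± 0.229 in BxPC-3. Its fold of means was 12.7, and its log2FC was 3.27 ± 0.09 (SE, adjusted p = 3.1e-07). ABCC3 was 77.2% ± 1.23 of the summed FPKM of the 8 pumps in CFPAC-1 and 15.1% ± 0.239 in BxPC-3. In BxPC-3 the most abundant pump was ABCC1, which exports glutathione conjugates (ENSG00000103222, chromosome 16, 15949577-16143074, plus strand), with 42.7% ± 2.18 of the sum.

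**Figure D1:**
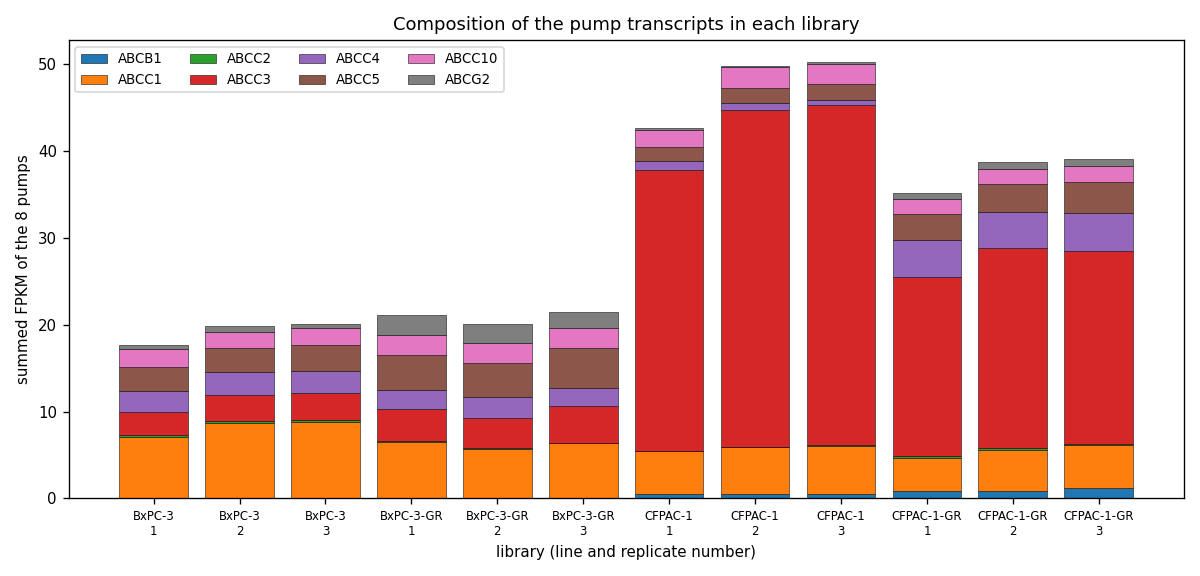
Summed FPKM of the 8 pumps in each of the 12 libraries (linear axis from 0), with each colour 1 pump and each bar 1 library. ABCC3 fills most of the 6 CFPAC-1 and CFPAC-1-GR bars, and the sum is 17.7 to 21.5 FPKM in the BxPC-3 lines against 35.2 to 50.3 FPKM in the CFPAC-1 lines.

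The other pumps separated the parental lines too. Of the 5 pumps tested in CFPAC-1 against BxPC-3, 1 was higher (ABCC3) and 3 were lower. ABCC4 was among these 5 through its BxPC-3 level alone. Of all genes tested in this comparison, 39.4% were higher and 44.8% lower, and 19.8% were SDE and higher. ABCC1 was lower in CFPAC-1 by a log2FC of -0.55 ± 0.09 (SE, adjusted p = 0.0013). ABCC4 was lower by -0.96 ± 0.09 (adjusted p = 6.6e-05), and ABCC5 by -0.48 ± 0.05 (adjusted p = 0.00017). ABCC10 had a log2FC of 0.12 and did not pass (adjusted p = 0.15). The low fit added ABCB1 (log2FC 2.65, adjusted p = 3.9e-06), which was higher in CFPAC-1, and ABCC2 (-1.21, adjusted p = 0.0003) and ABCG2 (-1.07, adjusted p = 0.002), which were lower. ABCB1 entered the low fit through its CFPAC-1 level alone, and ABCC2 through its BxPC-3 level alone. In that fit 7 of 8 pumps passed, as did 71.7% of all genes. Across genes, log2FC in this comparison rose with GC content (Spearman rho = 0.63 over 11821 genes). After the correction ABCC4 had a log2FC of -0.01 (adjusted p = 0.93) and ABCG2 one of 0.02 (adjusted p = 0.92, low fit), ABCC10 turned to -0.45 (adjusted p = 0.00072) and ABCC3 kept 2.93.

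**Figure D2:**
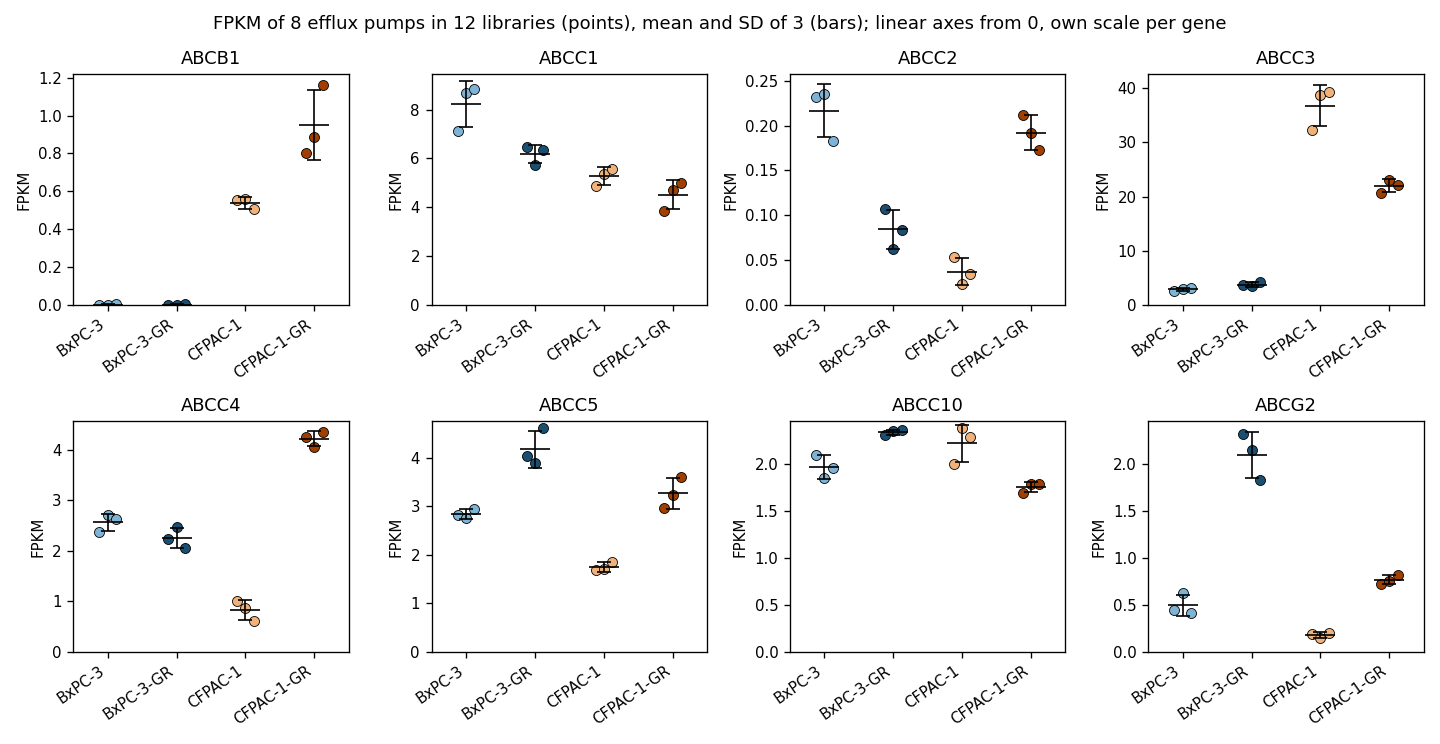
FPKM of each pump (linear axes from 0, 1 scale per gene) in the 3 libraries of each parental line and its resistant line (GR). Points are libraries, and bars are the mean and SD. ABCG2 and ABCC5 are higher in both resistant lines without overlap with the parental libraries, ABCC4 is higher in CFPAC-1-GR alone of the resistant lines, and ABCC2 lies lower in BxPC-3-GR and higher in CFPAC-1-GR.

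ABCG2 (ENSG00000118777, chromosome 4, 88090264-88231322, minus strand) showed the largest fold of means among the pumps in BxPC-3-GR. The parental BxPC-3 libraries held 0.447, 0.622 and 0.414 FPKM, and the BxPC-3-GR libraries held 2.31, 2.15 and 1.82 FPKM. The lowest resistant library was above the highest parental one. The means were 0.494 ± 0.112 and 2.09 ± 0.248 (SD, n = 3), a 4.23-fold difference. On log2(FPKM + 1) this gave a log2FC of 1.05 ± 0.09 (SE, adjusted p = 0.00015), which made ABCG2 the 1 pump called SDE in BxPC-3-GR, of 6 tested. ABCG2 entered this test through BxPC-3-GR alone, since its BxPC-3 mean was under the minimum of 1 FPKM. Of all genes tested, 4.14% were SDE and higher. Without BxPC-3-GR replicate 1 the log2FC was 0.998, just under the limit of 1, so that 0 pumps were SDE, although ABCG2 still passed the adjusted p. The low fit gave 1.89 ± 0.16 (adjusted p = 0.00078), and the GC and length correction left the value at 1.08.

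In the CFPAC-1 lines ABCG2 was a low transcript. The parental libraries held 0.193, 0.143 and 0.205 FPKM, which is about 9 to 19 fragments each. The CFPAC-1-GR libraries held 0.725, 0.754 and 0.821 FPKM, about 65 to 80 fragments each. The groups did not overlap, and their means, 0.180 ± 0.0331 and 0.766 ± 0.0494, were 4.25-fold apart. In the low fit ABCG2 rose by a log2FC of 1.63 ± 0.12 (adjusted p = 0.00016). Its transcript has a GC content of 41.2%, the lowest of the 8 pumps, and after the correction the log2FC was 0.40 ± 0.13 (adjusted p = 0.051). The difference of response, CFPAC-1-GR minus BxPC-3-GR, was -0.26 ± 0.21 for ABCG2 (adjusted p = 0.31, low fit) and -1.49 ± 0.22 after the correction (adjusted p = 0.00038). The order of the 4 lines was BxPC-3-GR, CFPAC-1-GR, BxPC-3 and CFPAC-1, and no neighbours in that order overlapped.

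ABCC4 (ENSG00000125257, chromosome 13, 95019829-95301446, minus strand), the exporter of cyclic nucleotides, had the largest difference between the responses of the lines on log2(FPKM + 1). The CFPAC-1 libraries held 1.005, 0.873 and 0.621 FPKM, and the CFPAC-1-GR libraries held 4.25, 4.06 and 4.36. All 3 resistant libraries were above all 3 parental ones, and the means of 0.833 ± 0.195 and 4.23 ± 0.155 were 5.07-fold apart. ABCC4 rose by a log2FC of 1.52 ± 0.09 (adjusted p = 1.1e-05) and was the 1 pump called SDE in CFPAC-1-GR, of 5 tested. ABCC4 entered this test through CFPAC-1-GR alone, since its CFPAC-1 mean was under the minimum of 1 FPKM. Of all genes tested in that comparison, 20.5% were SDE and higher. The correction lowered its log2FC to 0.56 ± 0.09 (adjusted p = 0.0026), which is no longer SDE, at a transcript GC content of 43.2%. In the low fit the values were 2.23 before and 1.04 after the correction (adjusted p = 0.0064).

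The BxPC-3 libraries held 2.37, 2.70 and 2.62 FPKM of ABCC4, and the BxPC-3-GR libraries 2.23, 2.47 and 2.06. These ranges overlapped, and the log2FC of -0.13 ± 0.07 did not pass (adjusted p = 0.15). The response of ABCC4 was larger in CFPAC-1-GR by 1.65 ± 0.12 on the log2 scale (adjusted p = 2.6e-07) and by 0.73 ± 0.12 after the correction (adjusted p = 0.00031). CFPAC-1 stood lowest of the 4 lines for this pump and CFPAC-1-GR highest.

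ABCC5 (ENSG00000114770, chromosome 3, 183919934-184018015, minus strand), a related exporter of nucleotide analogs, rose in both resistant lines, under the correction as well. The BxPC-3 libraries held 2.81, 2.75 and 2.94 FPKM, and the BxPC-3-GR libraries held 4.02, 3.89 and 4.60. The CFPAC-1 libraries held 1.68, 1.70 and 1.86 FPKM, and the CFPAC-1-GR libraries held 2.97, 3.22 and 3.61. Neither pair of groups overlapped, and the folds of means were 1.47 and 1.87. The log2FC was 0.43 ± 0.07 in BxPC-3-GR (adjusted p = 0.0021) and 0.63 ± 0.08 in CFPAC-1-GR (adjusted p = 0.00025). Neither reached the limit for SDE. Corrected values were 0.39 (adjusted p = 0.0034) and 0.40 (adjusted p = 0.0031). The difference of response was 0.20 ± 0.10 (adjusted p = 0.086), 0.02 ± 0.10 after the correction (adjusted p = 0.86) and -0.0553 under median-of-ratios scaling.

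ABCC3 moved in opposite directions in the lines. It was 2.64, 2.97 and 3.08 FPKM in BxPC-3 and 3.67, 3.43 and 4.25 FPKM in BxPC-3-GR, a log2FC of 0.29 ± 0.08 (adjusted p = 0.023). It was 32.3, 38.8 and 39.2 FPKM in CFPAC-1 and 20.7, 23.1 and 22.2 FPKM in CFPAC-1-GR, a log2FC of -0.71 ± 0.10 (adjusted p = 0.00037). The ranges did not overlap in either pair. The responses differed by -1.004 ± 0.13 (adjusted p = 2.9e-05) and -0.72 after the correction (adjusted p = 0.00064). The fall in CFPAC-1-GR was -0.48 after the correction (adjusted p = 0.004) and reached -1.004 under median-of-ratios scaling and -1.13 under upper-quartile scaling, where ABCC3 became SDE. The rise in BxPC-3-GR did not pass in 4 of 6 fits that left out 1 library, namely BxPC-3 replicate 1 or 2 or BxPC-3-GR replicate 1 or 3, with adjusted p-values from limma.

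ABCC1 fell in BxPC-3-GR. The BxPC-3 libraries held 7.12, 8.69 and 8.84 FPKM and the BxPC-3-GR libraries 6.47, 5.75 and 6.33, without overlap. The log2FC was -0.36 ± 0.09 (adjusted p = 0.016), and it did not pass without BxPC-3 replicate 2 or BxPC-3-GR replicate 2, where it was -0.32 and -0.31. Of 9 protein-coding genes tested within 1 Mb of ABCC1 in BxPC-3-GR, 7 were lower and 0 higher, where 31.5% of all genes were lower. The median log2FC of these neighbours was -0.50. With the correction 7 were still lower and 0 higher, with a median of -0.47. The part of the region in the ABCC1 value was not tested. In the CFPAC-1 lines the ranges overlapped, with 4.87, 5.37 and 5.57 FPKM in CFPAC-1 against 3.85, 4.70 and 4.98 in CFPAC-1-GR. That log2FC of -0.19 ± 0.10 did not pass (adjusted p = 0.11) and was 0.04 after the correction, but passed at -0.44 under median-of-ratios and -0.55 under upper-quartile scaling. The responses differed by 0.17 (adjusted p = 0.29), and by -0.14 under median-of-ratios scaling.

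ABCC10 (ENSG00000124574, chromosome 6, 43427366-43450430, plus strand) differed least. Its 12 libraries lay between 1.70 and 2.38 FPKM. The log2FC was 0.17 ± 0.05 in BxPC-3-GR (adjusted p = 0.029) and -0.22 ± 0.07 in CFPAC-1-GR (adjusted p = 0.024). The first did not pass after the correction (0.13, adjusted p = 0.071) or in 5 of 6 fits without 1 library, passing without BxPC-3 replicate 1. The second turned to 0.26 after the correction (adjusted p = 0.011) and did not pass in 4 of 6 fits, those without CFPAC-1 replicate 2 or 3 or CFPAC-1-GR replicate 1 or 3. The responses differed by -0.39 ± 0.08 (adjusted p = 0.001) and 0.15 after the correction (adjusted p = 0.098). DLK2, on the opposite strand, overlaps ABCC10 and stood at 1.85 FPKM in BxPC-3 and 2.62 in BxPC-3-GR, with 1.01 in the CFPAC-1 line and 0.583 in its resistant line. The strand setting of the counting is not given in the sources used here, so fragments from the overlap cannot be assigned with certainty.

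ABCB1 (ENSG00000085563, chromosome 7, 87503633-87713323, minus strand), the pump most often linked to multidrug resistance, was near 0 in both BxPC-3 lines. It was listed at 0 in 2 of 3 BxPC-3 and 2 of 3 BxPC-3-GR libraries, and the remaining library of each line held about 1 fragment. No fold was taken there. The CFPAC-1 libraries held 0.552, 0.562 and 0.505 FPKM and the CFPAC-1-GR libraries 0.803, 0.887 and 1.16 FPKM, without overlap. ABCB1 rose in CFPAC-1-GR in the low fit by a log2FC of 0.70 ± 0.15 (adjusted p = 0.008). The transcript GC content is 43.1%, and after the correction the value was -0.35 ± 0.15 (adjusted p = 0.11). RUNDC3B overlaps ABCB1 on the opposite strand and stood at 0.00762 FPKM in CFPAC-1 libraries and 0.127 FPKM in resistant ones.

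ABCC2 (ENSG00000023839, chromosome 10, 99782732-99852192, plus strand), the apical exporter of conjugates, was the lowest of the pumps in the CFPAC-1 line. BxPC-3 held 0.232, 0.236 and 0.183 FPKM and BxPC-3-GR 0.107, 0.0621 and 0.0840 FPKM. CFPAC-1 held 0.0537, 0.0236 and 0.0349 FPKM, about 2 to 8 fragments per library, and CFPAC-1-GR 0.212, 0.192 and 0.173 FPKM, about 21 to 36 fragments. The groups did not overlap in either line, and the directions were opposite. ABCC2 entered the low fit through BxPC-3 alone in the BxPC-3 lines, and through CFPAC-1-GR alone in the CFPAC-1 lines. ABCC2 fell in BxPC-3-GR in the low fit by a log2FC of -0.78 ± 0.12 (adjusted p = 0.0056), where 23.1% of all genes in that fit were lower. It rose in CFPAC-1-GR by 1.09 ± 0.12 (adjusted p = 0.00056), and by 0.16 after the correction, which did not pass (adjusted p = 0.36). The difference of response was 1.88 ± 0.17 (adjusted p = 7.5e-06) and 0.9996 ± 0.19 after the correction (adjusted p = 0.0018).

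**Figure D3:**
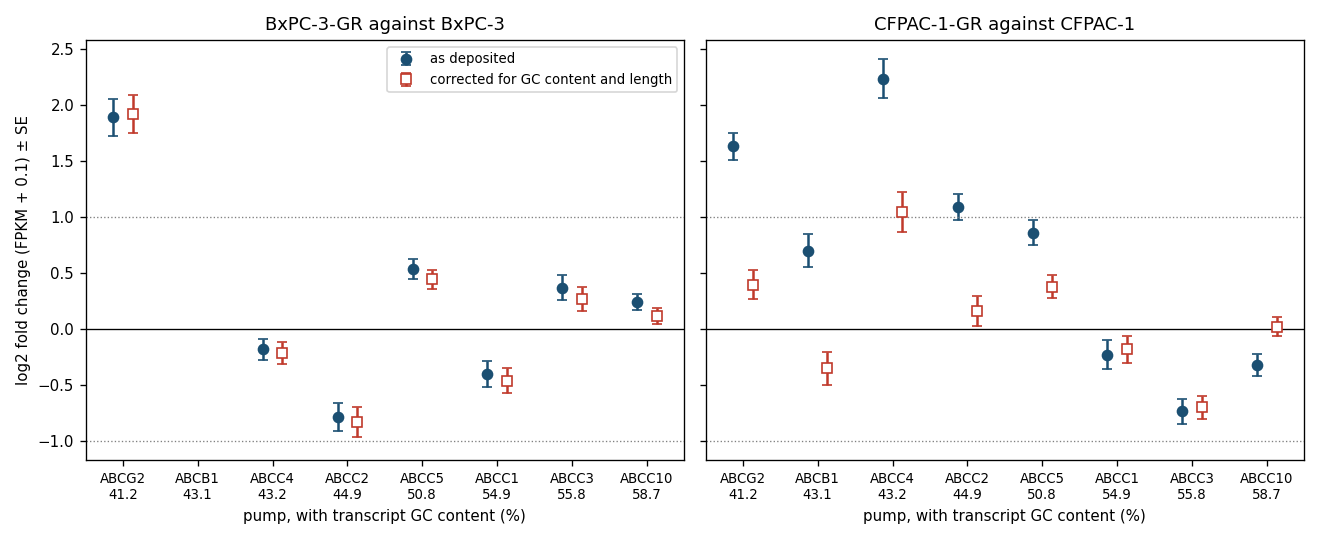
Log2FC of the pumps in the low fit (log2 of FPKM + 0.1, linear axis, bars are SE) in BxPC-3-GR against BxPC-3 (left) and CFPAC-1-GR against CFPAC-1 (right), ordered by transcript GC content. Filled circles are values as deposited, open squares are corrected for GC content and length, dotted lines mark a log2FC of 1 and -1, and ABCB1 has no value on the left. The pairs lie close together on the left, while on the right ABCG2 goes from 1.63 to 0.40 and ABCB1 from 0.70 to -0.35.

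Counted together, 4 of the 6 pumps tested in BxPC-3-GR were higher (ABCC3, ABCC5, ABCC10 and ABCG2), against 26.2% of all genes. ABCG2 was among these 6 through its BxPC-3-GR level alone, and the genes behind the all-gene shares could enter in the same way. ABCC1 alone was lower, against 31.5% of all genes, and ABCC4 did not pass. The ranges of the groups did not overlap for 5 of these 6 pumps, against 66.1% of all genes. The median log2FC of the tested pumps was 0.23, beside -0.05 for all genes. After the correction 4 of 6 pumps passed, against 58.9% of all genes.

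In CFPAC-1-GR, 2 of the 5 tested pumps were higher (ABCC4 and ABCC5) and 2 were lower (ABCC3 and ABCC10), against 44.6% and 34.9% of all genes. ABCC4 was among these 5 through its CFPAC-1-GR level alone. The ranges did not overlap for 4 of 5, against 82.1% of all genes. The median log2FC of the pumps was -0.19, beside 0.13 for all genes. In the low fit 5 of 8 pumps were higher, against 40.3% of all genes, and ABCC2 was among the 8 through its CFPAC-1-GR level alone. After the correction 3 of 5 were higher and 1 of 5 was lower, against 29.6% and 30.6% of all genes. With limma 0 were then SDE, against 8.66%, while 4 of 5 passed the adjusted p. In the corrected low fit 3 of 8 passed (ABCC3, ABCC4 and ABCC5), against 47.1% of all genes. The 5 pumps with a GC content of 50.8% or less had a log2FC above 0 in the low fit, and the 3 with 54.9% or more had one below 0. All genes sloped the same way with GC content, and its part in each pump's value was not tested beyond the correction.

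**Figure D4:**
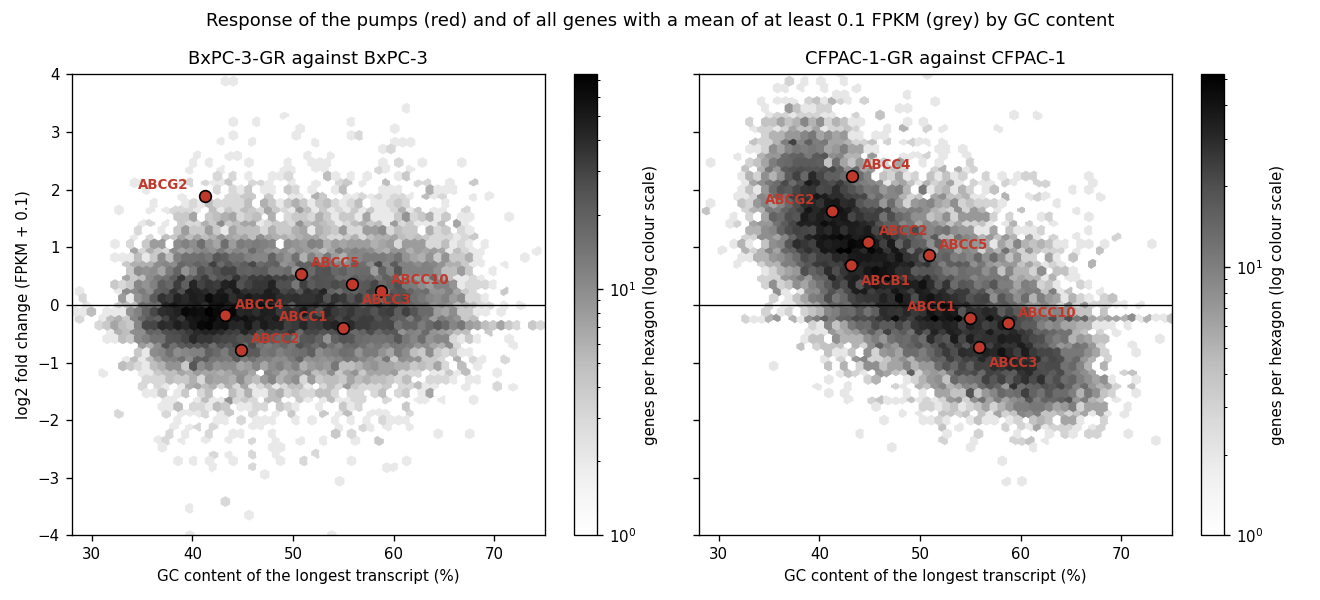
Log2FC in the low fit (linear axis) by GC content of the longest transcript (%), in BxPC-3-GR against BxPC-3 (left) and CFPAC-1-GR against CFPAC-1 (right). Grey hexagons count all genes averaging 0.1 FPKM or more on a log colour scale, and red points are the pumps. On the right the cloud slopes downward and the pumps follow its slope, with ABCC4 at 2.23 and ABCC3 at -0.73, while on the left the cloud is level and ABCG2, at 1.89, lies near its upper edge.

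The difference of response was tested for 5 pumps over all 12 libraries. It passed for 3 (ABCC3, ABCC4 and ABCC10), against 76.6% of all genes, and exceeded 1 in size for 2 (ABCC3 and ABCC4), against 38.0%. After the correction it passed for ABCC1, ABCC3 and ABCC4, against 63.3% of all genes. In the low fit it passed for 5 of 8 pumps, against 60.5%.

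The make-up of the pump transcripts shifted in both resistant lines. ABCC1 was 42.7% ± 2.18 of the summed FPKM in BxPC-3 and 29.5% ± 1.04 in BxPC-3-GR (SD, n = 3), and ABCG2 was 2.58% ± 0.539 and 10.0% ± 1.35. ABCC3 was 77.2% ± 1.23 in CFPAC-1 and 58.4% ± 1.502 in CFPAC-1-GR, and ABCC4 was 1.78% ± 0.560 and 11.2% ± 0.807. These shares did not overlap between parental and resistant libraries. The sum itself was 19.2 ± 1.29 FPKM in BxPC-3, 20.9 ± 0.730 in BxPC-3-GR, 47.6 ± 4.26 in CFPAC-1 and 37.7 ± 2.15 in CFPAC-1-GR. Leaving ABCC3 out turned the direction in the CFPAC-1 lines, with 10.8 ± 0.417 FPKM in CFPAC-1 and 15.7 ± 1.20 in CFPAC-1-GR. These shares and sums use FPKM as deposited, and no corrected share or sum was computed. The GC contents of ABCC3 and ABCC4 are 55.8% and 43.2%, and their corrected log2FC in CFPAC-1-GR were -0.48 and 0.56. The part of the GC trend in the shares and sums of the CFPAC-1 lines was not tested.

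The wider ABC family was read from a list of 41 other ABC transporters. To set beside the counts of this list and of those after it, 26.2% of all genes were higher and 31.5% lower in BxPC-3-GR. In CFPAC-1-GR these shares were 44.6% and 34.9%. In BxPC-3-GR 16 were tested, of which 6 were higher, 8 were lower and 2 did not pass, with a median log2FC of -0.07. The 2 called SDE and higher were the lipid exporters ABCA7 (log2FC 1.37, adjusted p = 2.9e-05) and ABCA1 (1.29, adjusted p = 0.00016). The 2 called SDE and lower were ABCF2 (-1.23, adjusted p = 0.00014) and ABCE1 (-1.01, adjusted p = 6.7e-05), which are not membrane transporters and act in translation and ribosome recycling. Of all genes, 3.62% were SDE and lower.

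In CFPAC-1-GR 14 were tested, of which 5 were higher, 8 were lower and 1 did not pass, with a median of -0.35. The peroxisomal transporter ABCD3 (1.92), ABCE1 (1.67) and the mitochondrial ABCB10 (1.01) were SDE and higher. Those SDE and lower included the lipid transporter ABCA3 (-1.35) and the mitochondrial ABCB8 (-1.02), in a comparison where 11.7% of all genes were. ABCD3, ABCE1 and ABCB10 have GC contents of 37.6%, 38.4% and 45.3%, and ABCA3 and ABCB8 both of 60.4%. After the correction 0 of these 14 were SDE with limma, while 10 passed the adjusted p. Of all genes, 29.6% were then higher, 30.6% were lower and 8.66% were SDE.

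**Figure D5:**
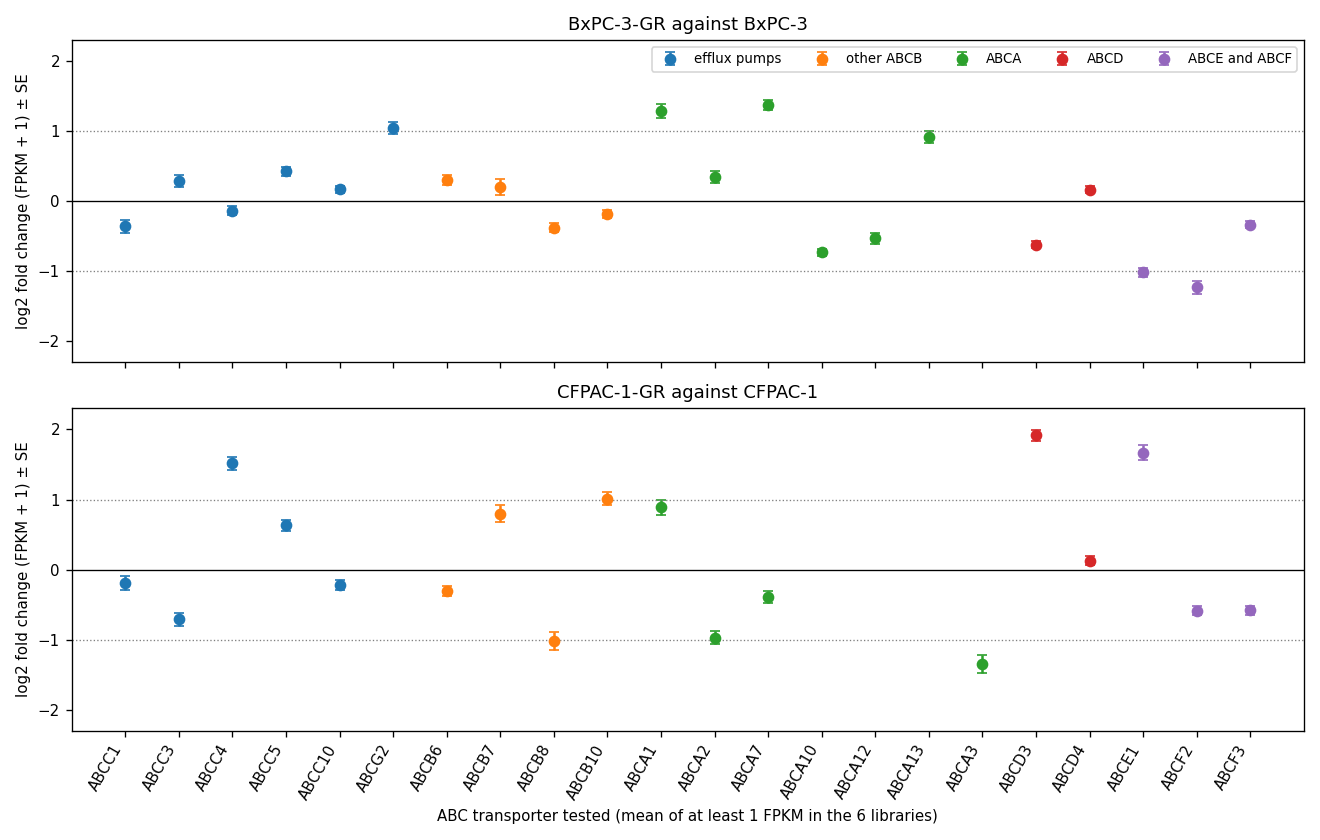
Log2FC (log2 of FPKM + 1, linear axis, bars are SE) of ABC transporters averaging 1 FPKM or more, in BxPC-3-GR against BxPC-3 (top) and CFPAC-1-GR against CFPAC-1 (bottom), coloured by subfamily. Dotted lines mark 1 and -1, and a gene with no point was not tested in that comparison. Among the pumps ABCG2 passes 1 at the top and ABCC4 at the bottom, and ABCE1 lies below -1 at the top and above 1 at the bottom.

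No other ABCC or ABCG gene reached a mean of 1 FPKM in either comparison. CFTR, an ABCC family member that is a chloride channel and not a pump, was named after its values were seen. It was 0.00557, 0 and 0.0113 FPKM in the BxPC-3 libraries and 1.42, 1.16 and 1.56 FPKM in the BxPC-3-GR libraries. It rose by a log2FC of 3.80 ± 0.12 in the low fit (adjusted p = 5.1e-05), which it entered through BxPC-3-GR alone. CFTR stayed at or under 0.0339 FPKM in every CFPAC-1 and CFPAC-1-GR library.

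Transcription factors known to act on pump genes were a list of 19. In BxPC-3-GR 13 were tested, with 6 higher, 2 lower and 5 not passing. AHR, the xenobiotic receptor that acts on ABCG2, was the 1 called SDE, going from 25.5 ± 2.87 to 62.4 ± 2.26 FPKM (log2FC 1.27, adjusted p = 8.3e-05, 1.30 after the correction). In CFPAC-1-GR 12 were tested, with 8 higher, 3 lower and 1 not passing, where 44.6% of all genes were higher and 34.9% lower. HIF1A (2.08), NFE2L2 (1.44), SP1 (1.18), FOXO3 (1.13) and AHR (1.06) were SDE and higher there, as were 20.5% of all genes. After the correction 0 of them were SDE with limma and 9 of 12 passed the adjusted p, where 29.6% of all genes were higher and 30.6% lower. HIF1A was then at 0.83 and NFE2L2 at 0.87, and AHR turned to -0.27 (adjusted p = 0.009).

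Glutathione and conjugation enzymes, which make substrates of the ABCC pumps, were a list of 28, of which 27 were in the table. In BxPC-3-GR 14 were tested, with 4 higher, 5 lower and 5 not passing, and 0 were SDE with limma. In CFPAC-1-GR 14 were tested, with 5 higher and 7 lower. After the correction 1 was higher, 8 were lower and 5 did not pass, with a median log2FC of -0.59. Of all genes, 29.6% were then higher and 30.6% lower. SDE after the correction were 2 of the 14, both lower, against 8.66% of all genes. GCLC, the catalytic subunit of the enzyme that starts glutathione synthesis, rose (log2FC 1.56, 0.72 after the correction). The glutathione transferases GSTP1 (-1.28) and GSTO1 (-1.04) fell, with corrected values of -0.29 (adjusted p = 0.17) and -1.24 (adjusted p = 9.2e-05).

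Partners of the pumps at the membrane, among them linkers and scaffolds, were a list of 8. MSN (moesin), a linker between membrane and actin, fell in BxPC-3-GR from 268 ± 5.61 to 95.3 ± 2.20 FPKM (log2FC -1.48, adjusted p = 5.5e-06) among 7 tested, of which 2 were higher and 2 lower. In CFPAC-1-GR 8 were tested, with 3 higher and 3 lower, and after the correction 2 were higher and 3 lower. The scaffold PDZK1 rose from 0.0715 ± 0.0734 to 2.18 ± 0.347 FPKM (log2FC 1.56, 1.002 after the correction and still SDE), and RDX (radixin) had a log2FC of 1.48 (0.16 after the correction, adjusted p = 0.068). PDZK1 entered this test through CFPAC-1-GR alone. The scaffolds SLC9A3R2 (-1.42) and SLC9A3R1 (-1.27) fell, with corrected values of -0.47 and -0.34 that still passed but were no longer SDE. Of 6 other drug efflux genes, 3 were tested in each line. In BxPC-3-GR 2 were higher and 1 did not pass. In CFPAC-1-GR 2 were higher and 1 was lower, with the copper pump ATP7A (1.21) and the vault protein MVP (-1.05) SDE. ATP7A entered this test through CFPAC-1-GR alone. After the correction ATP7A turned to -0.16 (adjusted p = 0.049) and MVP was at -0.38 (adjusted p = 0.0022), so that neither was SDE, and 1 of the 3 genes was higher and 2 were lower.

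The tested protein-coding genes beside the SDE pumps were read for the same comparison. Within 1 Mb of ABCG2, 12 genes were tested in BxPC-3-GR, with 2 higher, 3 lower and a median log2FC of 0.02. The nearest gene, PKD2, stood at 0.13 (adjusted p = 0.25), NUDT9 on the same side at -0.12, and on the other side HERC5 at 0.08 (adjusted p = 0.19) and HERC6 at -1.58 (adjusted p = 4.9e-06). In CFPAC-1-GR all 9 genes tested there were higher, against 44.6% of all genes, with a median of 0.93 and a median GC content of 44.1%. After the correction 3 of these 9 were higher, 1 was lower and 5 did not pass, with a median of 0.15. Within 1 Mb of ABCC4, 7 genes were tested in CFPAC-1-GR, with 5 higher, 1 lower and a median of 0.99. CLDN10 fell (-1.69), DNAJC3 (2.004) and GPR180 (1.61) rose, and SOX21 had a value of -0.24 (adjusted p = 0.1). These 7 genes had a median GC content of 39.9%, and after the correction 2 were higher, 2 were lower and 3 did not pass, with a median of -0.0512.

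The genes with the pattern most like a pump were found by the root mean square difference of centred log2(FPKM + 1) over the 12 libraries, among 12210 genes. For ABCC4 these were PPTC7 (0.0779) and LIN9 (0.0890). For ABCC5 they were KDM4C (0.0747) and FAM220A (0.0775), and for ABCC3 SHISA4 (0.125) and SLC17A9 (0.142). For ABCC1 they were BIN3 (0.104) and ZNF746 (0.109). For ABCC10, which varied little, they were SMARCC2 (0.0549) and the mitochondrial MT-ND3 (0.0718). ABCB1, ABCC2 and ABCG2 had a mean under 1 FPKM over the 12 libraries and were not compared.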

How the data were processed

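The authors sequenced total RNA of 4 lines in 3 libraries each and deposited 1 table of FPKM values for 58302 genes, made with GRCh38 and Ensembl release 91. The submitters' processing notes name Trimmomatic 0.27, FastQC 0.10.1 and TopHat2 2.0.8, and list hg19 beside GRCh38. The counting program and strand setting are not given in the sources used here. FPKM is divided by gene length and mapped fragments, so GC content and composition of a library can move it. Between 65.2% and 75.9% of low values lay within 0.05 of a whole number of fragments, too few to recover counts.

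The pumps and all lists were chosen with earlier results of these data known. Comparisons were of each resistant line with its parent, of CFPAC-1 with BxPC-3, and of the responses with each other (an interaction over 12 libraries), using limma 3.58.1 (lmFit and eBayes) in R 4.3.3, without a block. P-values were adjusted by Benjamini-Hochberg over all genes tested. The fit was tested on simulated data. The low fit was used for pumps with a mean under 1 FPKM. The correction regressed each library's deviations on splines of GC content and log2 length with 5 degrees of freedom each. GENCODE release 29 supplied positions, lengths and GC contents for 58039 genes.

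Named genes were all pumps, up to 3 SDE genes per direction, list and comparison, the 2 nearest tested genes on each side of an SDE pump, and the 2 most alike genes, while 1 gene of the ABC lists is counted but not reported here. FOXO3 and AHR in CFPAC-1-GR and CFTR were added after their values were seen. Alternatives were a pseudocount of 0.1, no filter, a minimum of 0.1 FPKM, all 12 libraries in 1 fit, the replicate block, the correction, other scalings, protein-coding genes, a mean trend, ratios of means, a window of 3 Mb and each library left out. The low fit with the correction, and the low fit of the parental comparison and the difference of response, were added after the values were seen, as were the other alternatives of the low fit and the corrected values of neighbouring genes.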

Additional observations from a re-analysis of the deposited data

Results flagged for a closer look

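The difference between resistant and parental cells was not the same in the lines for 5 pumps as deposited. This was read from a test of the difference of response itself (CFPAC-1-GR response minus BxPC-3-GR response, limma interaction term). Of all genes, 76.6% passed this test, and 60.5% in the low fit. The difference was -1.004 for ABCC3, 1.65 for ABCC4 and -0.39 for ABCC10. It was 0.69 for ABCB1 and 1.88 for ABCC2 in the low fit. After the correction ABCC10 turned to 0.15 (adjusted p = 0.098 with limma) and ABCB1 to -0.33 (adjusted p = 0.12), neither of which passed, while ABCC3 (-0.72), ABCC4 (0.73) and ABCC2 (0.9996) still did. ABCC1 and ABCG2, which did not pass as deposited, passed after the correction, and the corrected ABCG2 response was smaller in CFPAC-1-GR than in BxPC-3-GR. The ABCB1 value rests on 1 line in effect, since the BxPC-3 lines held at most about 1 fragment per library.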

How the results depend on the processing

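Over the 4 comparisons the log2FC of the pumps was recomputed under 480 alternatives, of which 425 kept the direction and the side of the threshold, 26 no longer passed, 10 came to pass, 13 reversed and 6 of the ratios of means moved. SDE genes in BxPC-3-GR numbered 909, and 1429 with a pseudocount of 0.1, 2665 in the low fit and 2608 with the correction added to it. The 1 SDE pump there, ABCG2, was lost without BxPC-3-GR replicate 1 (0 to 1 over the libraries left out). SDE genes in CFPAC-1-GR numbered 3880, and 8320 in the low fit, 1042 with the correction and 1046 with the correction and the replicate block. The 1 SDE pump there became 3 in the low fit, 0 with the correction (with and without the block) and 2 under median-of-ratios and upper-quartile scaling. For CFPAC-1 against BxPC-3 the 5274 SDE genes became 10503 in the low fit, 3143 with the correction and 7915 with both, and the 1 SDE pump became 2 with a pseudocount of 0.1, 5 in the low fit, 3 with both, and 1 to 2 without 1 library. For the difference of response the 4643 genes became 2243 with the correction and 9150 in the low fit, and the 2 pumps became 0 with the correction and 1 to 2 without 1 library. ABCC3 was the pump lost without BxPC-3 replicate 1, BxPC-3-GR replicate 3, CFPAC-1 replicate 2 or 3 or CFPAC-1-GR replicate 1, with differences between -0.935 and -0.964. ABCC4 was the pump gained between the parental lines, without BxPC-3 replicate 1 or CFPAC-1 replicate 1.

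The correction reversed ABCB1 (-0.35), ABCC1 (0.0366) and ABCC10 (0.26) in CFPAC-1-GR, ABCC10 (-0.45) and ABCG2 (0.0223) between the parental lines, and ABCB1 (-0.33) and ABCC10 (0.15) in the difference of response. Median-of-ratios scaling reversed ABCC1 (-0.14) and ABCC5 (-0.0553) in the difference of response. The cause was not tested. The median log2FC of all genes in CFPAC-1-GR was 0.13 as deposited, -0.11 under median-of-ratios and -0.21 under upper-quartile scaling, and the share of SDE genes that were higher was 63.7%, 43.3% and 36.0%. The median of the neighbours in CFPAC-1-GR within 3 Mb was 1.11 for ABCC4, and 0.44 for ABCC5 against -0.24 within 1 Mb. With the correction the medians within 1 Mb there were 0.15 for ABCG2, -0.0512 for ABCC4, 0.0745 for ABCC5 and 0.15 for ABCC3, which stood at -0.15 without it.

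The replicate number as a block gave 908, 3883, 5279 and 4643 genes in the 4 comparisons. With it ABCC10 in BxPC-3-GR did not pass (adjusted p = 0.058 with limma). In the low fit the block ended the calls of ABCC1 (0.097), ABCC3 (0.065) and ABCC10 (0.11) in BxPC-3-GR and of ABCC10 (0.073) in CFPAC-1-GR, and with the correction added those of ABCC1 in BxPC-3-GR (0.073), ABCC5 in CFPAC-1-GR (0.062) and ABCC2 between the parental lines (0.051), the values in brackets being adjusted p-values. It ended no other pump's call in these fits. Deviations of samples with the same number correlated at 0.0959, -0.0521 and 0.0584 in the BxPC-3 lines and at 0.000145, -0.143 and -0.0671 in the CFPAC-1 lines. No consistent pairing by number was seen, and these values cannot tell whether libraries with the same number were prepared together. Depth limits ABCB1 in the BxPC-3 lines and ABCC2 and ABCG2 in CFPAC-1 most. ABCC2 could not be fitted in CFPAC-1-GR without CFPAC-1-GR replicate 1 or 2, where its mean fell under 0.1 FPKM.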
